A study of Mus musculus with 6 samples.

Results

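The 8 connexin and pannexin genes described here, of 24411 gene symbols measured, were the rows of the count tables named Gjb2, Gjb6, Gja1, Gjb1, Gjc1, Gjc3, Panx1 and Panx2. RNA was sequenced from cochlear sensory epithelium dissected at postnatal day 9 (P9), before the onset of hearing, from C57BL/6N mice. Kir2.1-OE mice were compound heterozygotes for OtofrtTA and tetO-Kir2.1-IRES-tau-lacZ, in which doxycycline (DOX) induces Kir2.1, an inwardly rectifying K+ channel, in cells that drive rtTA from the Otof promoter, the inner hair cells (IHCs), and control mice were littermates heterozygous for OtofrtTA alone. Both groups drank DOX at 0.5 mg/ml. There were 3 Kir2.1-OE libraries and 3 control libraries, and every library pooled 8 cochleae of 4 mice, so that the pool is the replicate and p-values measure the spread between pools. The study asked which genes differ when IHCs lose their intrinsic Ca2+ action potentials.

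Connexins assemble as hexamers in the membrane and dock with those of a neighbouring cell to form gap junctions, which pass ions and small signalling molecules such as IP3. In the cochlea, connexin 26 (Gjb2) and connexin 30 (Gjb6) couple supporting cells and fibrocytes, hair cells are not coupled by them, and their loss causes deafness. Before hearing, ATP released by supporting cells raises Ca2+ in the cells around the IHCs, and connexin hemichannels are one route for that ATP. Pannexins form channels in the membrane of single cells, and Panx1 is best known as an ATP release channel.

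Each library held between 35430946 and 41205051 assigned reads. Kcnj2, which encodes Kir2.1, had a normalized count of 3612, 3813 and 2213 in the Kir2.1-OE pools (replicates 1, 2 and 3) and 235.8, 228.1 and 226 in the controls, so the libraries followed their labels. All 8 listed hair cell markers and all 6 supporting cell markers passed the filter on low counts, and markers of Schwann cells, neurons, bone and vessels were present as well. The tissue was therefore mixed, and in such bulk samples fewer cells of a type and less RNA per cell cannot be told apart.

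Of the 8 genes, all of which passed the filter, Panx2 rose in Kir2.1-OE (2.32-fold) and 7 were not called. A gene was called at an adjusted p under 0.05 with a fold change over 1.5, by the quasi-likelihood test of edgeR, with p-values adjusted after Benjamini-Hochberg over all 15303 genes tested. The 1 of 8 called higher stood beside 15.5% of all genes tested, and 0 of 8 called lower beside 5.08%, which makes 20.5% called in either direction. At an unadjusted p under 0.05 there were 3 of the 8, namely Panx2, Gja1 and Gjc3, beside 8777 of the 15303 genes tested, which is a larger share. The median log2 fold change was 0.08 over the 8 genes and 0.01 over all genes tested. The 3 libraries of a group did not overlap those of the other group for 1 of the 8 genes (Panx2), whereas this held for 61.6% of all genes tested.

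**Figure D1:**
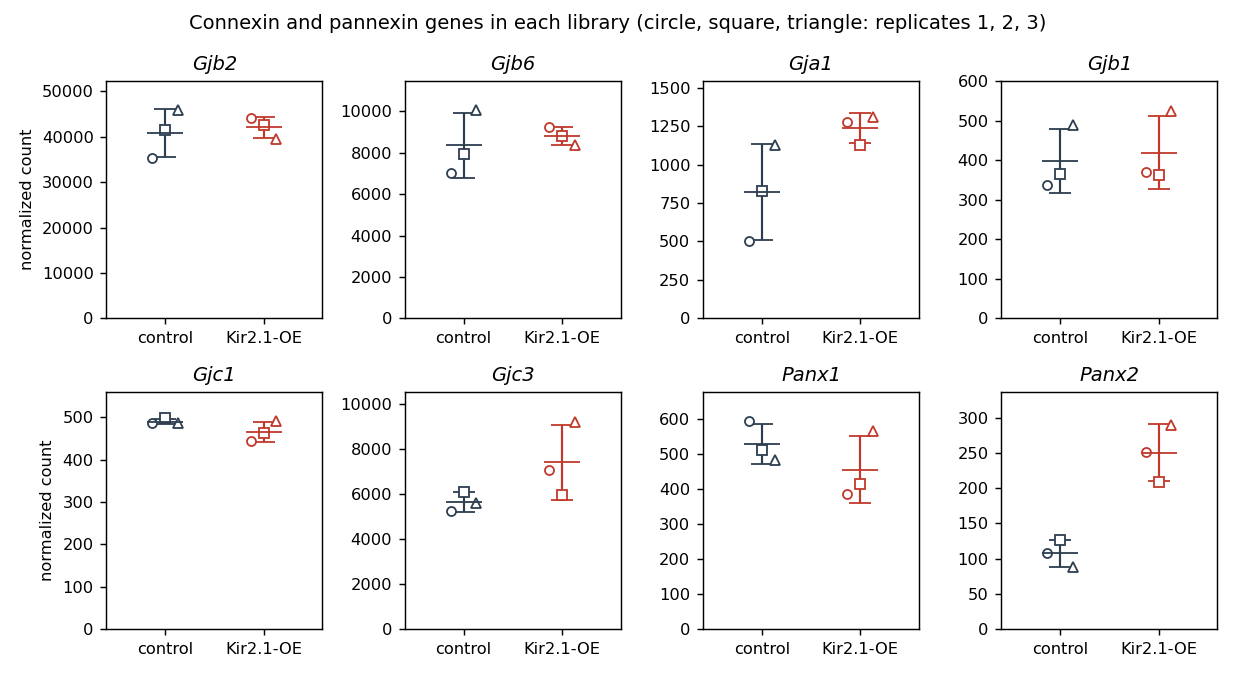
Normalized counts (vertical axes from 0, one scale per gene) of the 8 connexin and pannexin genes in the 3 control and 3 Kir2.1-OE libraries. Circles, squares and triangles are replicates 1, 2 and 3, horizontal lines the group means and bars ± SD. Panx2 is the one gene without overlap between the groups, and control replicate 1 lies lowest for Gjb2, Gjb6, Gja1, Gjb1 and Gjc3.

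Gjb2 and Gjb6 lie near each other on the minus strand of chromosome 14 of mm10, at 57098600 to 57104702 and 57123303 to 57133611, with 18600 bases and 1 annotated protein-coding gene between them. The 250 bases before the transcription start of each are printed because these genes gave most of the connexin reads and varied together over the libraries. They are RefSeq sequences on GRCm38.p6, read 5′ to 3′ on the minus strand and ending at the base before the start, with capitals marking the GC box (GGGCGG, or CCGCCC on the other strand).
Gjb2, chr14:57104703-57104952: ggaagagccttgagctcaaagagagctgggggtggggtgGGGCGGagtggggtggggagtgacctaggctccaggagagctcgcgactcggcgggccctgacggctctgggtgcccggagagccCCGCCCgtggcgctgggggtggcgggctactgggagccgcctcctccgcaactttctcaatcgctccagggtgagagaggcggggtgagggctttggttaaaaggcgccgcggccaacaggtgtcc
Gjb6, chr14:57133612-57133861: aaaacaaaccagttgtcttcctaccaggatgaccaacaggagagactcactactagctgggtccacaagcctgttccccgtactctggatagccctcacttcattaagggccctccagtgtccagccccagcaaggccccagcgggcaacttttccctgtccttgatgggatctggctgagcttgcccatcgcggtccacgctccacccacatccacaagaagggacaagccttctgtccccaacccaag
The Gjb2 window was 69.2% G and C, with GC box matches that began 211 and 126 bases before the start. In the Gjb6 window, at 56.8% G and C, neither strand held these letters. Over the 250-base windows of 32851 mouse RefSeq promoters, 32.7% held a GC box on either strand. TATAAA, found in 12.4% of those promoters, and ACAAAG, found in 16.5%, were in neither window on either strand.

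Read per length, Gjb2 was by far the most abundant gene of the family. Its level, in CPM (counts scaled to the library size) per kb of the longest annotated transcript, was 466 ± 26.2 (SD, n = 3) in Kir2.1-OE and 453 ± 57.8 (SD, n = 3) in control, and over all 6 libraries it averaged 459. On the same scale Gjb6 followed at 109, and Gjc3, which encodes connexin 29 of Schwann cells, at 43.3. Within the summed per-length level of the 8 genes, Gjb2 made up between 69.3% and 74.1% of a library, Gjb6 between 16.3% and 18.4%, and Gjc3 between 5.35% and 9.7%. The per-length levels of Gja1 (7.05) and Gjb1 (6.87) overlapped over the 6 libraries and were not told apart. Gjc1 came next at 3.73, Panx1 at 2.29 and Panx2 last of the 8 at 1.41. Panx1 and Panx2 overlapped over the libraries, since the level per kb of Panx2 was 1.97 ± 0.32 (SD, n = 3) in Kir2.1-OE, near the 2.12 ± 0.45 of Panx1, and 0.844 ± 0.152 in control, below the 2.46 ± 0.265 of Panx1.

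The range of Gjb2 over the 6 libraries lay wholly above that of Gjb6, that of Gjb6 above that of Gjc3, and that of Gjb1 above that of Gjc1. The order of the lower genes depends on the transcript chosen: with the median annotated transcript as the length, the per-length level was 10.8 for Panx1, 6.96 for Gjb1, 6.69 for Gjc1 and 2.06 for Panx2, which placed Panx1 above both connexins. Gja1 moved to 15.7, Gjc3 to 75.7 and Gjb6 to 163, all still below Gjb2, whose annotation holds 1 transcript. The shares of the summed level given above therefore hold for the longest transcript and were not taken with the median.

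**Figure D2:**
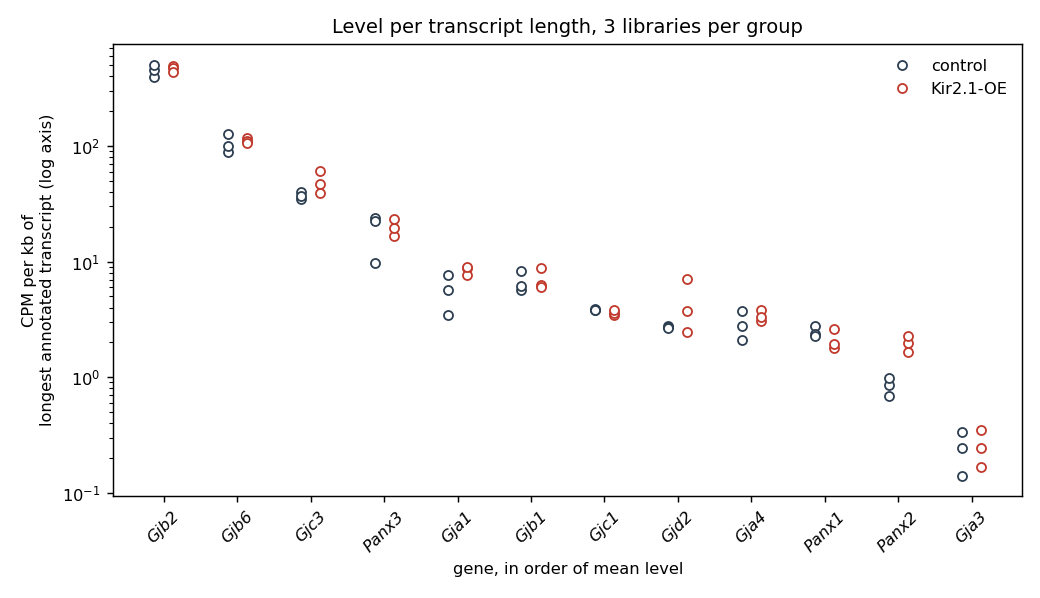
Level in CPM per kb of the longest annotated transcript (log axis) of 12 connexin and pannexin genes that passed the filter, in order of mean level. Each circle is 1 library, dark for control and red for Kir2.1-OE. Gjb2 and Gjb6 stand above all other genes, Gjd2 is spread widely in Kir2.1-OE, and Panx2 separates by group.

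Connexin 26 and connexin 30, the channels of the supporting cell network, did not pass the test. Gjb2 had a normalized count of 44070, 42700 and 39470 in Kir2.1-OE (replicates 1, 2 and 3) and 35360, 41490 and 45830 in controls 1 to 3. The groups overlapped, since the lowest and the highest library were both controls. The log2 fold change of Gjb2 was 0.04 (SE 0.102, 95% interval -0.19 to 0.27, adjusted p = 0.76 by edgeR's quasi-likelihood test, Benjamini-Hochberg adjusted). Gjb6 had 9237, 8801 and 8377 in Kir2.1-OE and 7035, 7952 and 10080 in control. Again controls held both the lowest and the highest library. Its log2 fold change was 0.08 (SE 0.121, 95% interval -0.20 to 0.35, adjusted p = 0.63, edgeR).

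Ordered by normalized count, the 6 libraries stood in the same order for Gjb2 and Gjb6 except that control replicate 2 and Kir2.1-OE replicate 3 changed places. The Gjb6 count was 21.0%, 20.6% and 21.2% of the Gjb2 count in Kir2.1-OE (replicates 1, 2 and 3) and 19.9%, 19.2% and 22.0% in the controls. These ratios overlapped between the groups, at 20.9% ± 0.307 (SD, n = 3) and 20.3% ± 1.47 (SD, n = 3). The difference of the log2 ratio, 0.0430, had p = 0.5 in a two-sided exact permutation test, which cannot go below 0.10 with 3 pools against 3. The genes whose log2 normalized counts were most like those of Gjb2 over the 6 libraries, among 13644 genes compared, were Man1b1 (Pearson's r 0.986), Cpne7 (0.984) and Pdlim1 (0.980), given as a description.

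Gja1 encodes connexin 43, which is abundant in bone cells, fibroblasts and glia. It lies on the plus strand of chromosome 10, from 56377330 to 56402513 of mm10. Its normalized count was 1278, 1126 and 1312 in Kir2.1-OE (replicates 1, 2 and 3) and 500.6, 831.4 and 1127 in the controls. Kir2.1-OE libraries were alike, the controls were spread widely, and control replicate 3 slightly exceeded Kir2.1-OE replicate 2. The log2 fold change was 0.60 (SE 0.230, 95% interval 0.08 to 1.11), with an adjusted p of 0.0545 in edgeR's quasi-likelihood test after Benjamini-Hochberg adjustment, which missed the threshold.

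The call on Gja1 lay at the edge of the threshold. Gja1 was called higher in 9 of 20 alternatives to the analysis, among them DESeq2 (adjusted p = 0.014). Without control replicate 1 the log2 fold change of Gja1 was 0.34, and without control replicate 3 it was 0.89 with an edgeR adjusted p of 0.00613. Of the 6 cartilage and bone markers, all detected, 1 (Acan) was called higher and 0 lower, beside 15.5% and 5.08% of all genes tested. The 6 markers summed to a normalized count of 112300 to 125200 in Kir2.1-OE and to 31730, 85130 and 120400 in controls 1 to 3. In the controls Gja1 stood in the order of that sum, with replicate 1 lowest and replicate 3 highest, but in Kir2.1-OE it did not, since Gja1 was lowest in replicate 2 and the sum in replicate 1. Most of the sum was Ibsp, with 26530, 71540 and 98520 in controls 1 to 3. Within the controls Bglap and Acan shared that order, while Sp7 and Runx2 were highest and Col10a1 lowest in replicate 2. The part of these markers in the Gja1 values was not tested. Of 13644 genes compared, Rasa3 (Pearson's r 0.996), Plcd1 (0.994) and Dmp1 (0.989) were most like Gja1 over the 6 libraries, given as a description. Dmp1 encodes a protein of the bone matrix.

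Gjc3 and Gjb1 encode connexin 29 and connexin 32, the connexins of myelinating Schwann cells, and Gjb1 is the gene of X-linked Charcot-Marie-Tooth neuropathy. Gjc3, on the minus strand of chromosome 5 (137953461 to 137963098, mm10), had a normalized count of 7045, 5941 and 9195 in Kir2.1-OE and 5217, 6069 and 5595 in control. Kir2.1-OE replicates 1 and 3 lay above all controls, while replicate 2 lay within them. The log2 fold change was 0.39 (SE 0.142, 95% interval 0.08 to 0.71), and its adjusted p of 0.0420 (edgeR's quasi-likelihood test, Benjamini-Hochberg) passed the threshold although the fold, 1.31, was under 1.5. Without Kir2.1-OE replicate 3 the log2 fold change of Gjc3 was 0.19 with an edgeR adjusted p of 0.143, and its adjusted p stayed under 0.05 in 2 of the 6 fits that left out a library.

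The 8 Schwann cell markers were all detected, and 5 of them were called higher and 0 lower, beside 15.5% and 5.08% of all genes tested. Their summed normalized count was 437800, 382900 and 508000 in Kir2.1-OE (replicates 1, 2 and 3) and 269300, 335000 and 344400 in the controls, so that Gjc3 stood in the order of that sum within Kir2.1-OE but not within the controls, where Gjc3 was highest in replicate 2 and the sum in replicate 3. Their part in the Gjc3 values was not tested. Of 13644 genes compared, Gal3st1 was most like Gjc3 over the 6 libraries (Pearson's r 0.993), which is given as a description. Gal3st1 stood ahead of Napb (0.992) and Klhdc8a (0.992), and encodes an enzyme of the synthesis of the myelin lipid sulfatide.

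Gjb1 did not pass the test. It lies on the plus strand of chromosome X, from 101376378 to 101385629 of mm10. Its normalized count was 370.5, 361.7 and 525.8 in Kir2.1-OE and 338.1, 366.2 and 489.6 in control, with replicate 3 the highest of each group and overlap between the groups. Gjb1 had a log2 fold change of 0.08 (SE 0.184, 95% interval -0.34 to 0.49, edgeR adjusted p = 0.755).

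Gjc1 encodes connexin 45, known from vascular smooth muscle and neurons, and lies on the minus strand of chromosome 11 (102799579 to 102819700, mm10). It varied least of the 8 genes. The normalized count was 444.4, 462.7 and 490.8 in Kir2.1-OE and 486.6, 497.9 and 486.5 in control. Kir2.1-OE replicates 1 and 2 lay below all controls and replicate 3 lay among them. The log2 fold change of -0.07 (SE 0.0934, 95% interval -0.28 to 0.14, adjusted p = 0.538 by edgeR's quasi-likelihood test) had an interval that covered both directions.

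Of the 2 pannexins Panx2 was called and Panx1 was not, and the difference between them was not tested. Panx1, on the minus strand of chromosome 9 (15002128 to 15045478, mm10), had a normalized count of 385.9, 414.7 and 564.9 in Kir2.1-OE and 593.9, 511.6 and 484.5 in control. Kir2.1-OE replicates 1 and 2 lay below all controls, and replicate 3 lay among them. Panx1 had a log2 fold change of -0.22 (SE 0.153, 95% interval -0.56 to 0.12, edgeR adjusted p = 0.256). Without Kir2.1-OE replicate 3 it was -0.42 with an edgeR adjusted p of 0.0225, which passed the threshold on p but not on fold, and without any other library it lay between -0.28 and -0.13.

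Panx2 encodes the pannexin best known from neurons and lies on the plus strand of chromosome 15, from 89059734 to 89073567 of mm10. Its normalized count was 251.5, 208.9 and 289.9 in Kir2.1-OE (replicates 1, 2 and 3) and 108.4, 126.3 and 87.5 in controls 1 to 3. Every Kir2.1-OE library lay above every control. Panx2 rose by a log2 fold change of 1.22 (SE 0.191, 95% interval 0.79 to 1.64, adjusted p = 0.000863 by edgeR's quasi-likelihood test, Benjamini-Hochberg adjusted), and it lay between 1.08 and 1.35 with any 1 library left out. On the opposite strand Panx2 overlaps the gene 1810021B22Rik, and since the counting is not stated to use strand, reads of the overlap cannot be assigned with certainty.

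The libraries stood in the same order for Panx2 within each group as for the summed neuron markers. The 5 neuron markers were all detected, and 3 of them (Nefl, Nefm and Snap25) were called higher and 0 lower, beside 15.5% and 5.08% of all genes tested. Their summed normalized count was 24200, 15030 and 38480 in Kir2.1-OE (replicates 1, 2 and 3) and 10090, 12520 and 7774 in controls 1 to 3, without overlap between the groups. Their part in the rise of Panx2 was not tested. Among the 5, Tubb3, at a log2 fold change of 0.38 (edgeR adjusted p = 0.216), and Prph, at 0.14 (edgeR adjusted p = 0.765), did not pass. In controls 1 to 3 Tubb3 (2891, 2829 and 2093) and Prph (47.2, 52.7 and 47.8) did not follow the order of Panx2.

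**Figure D3:**
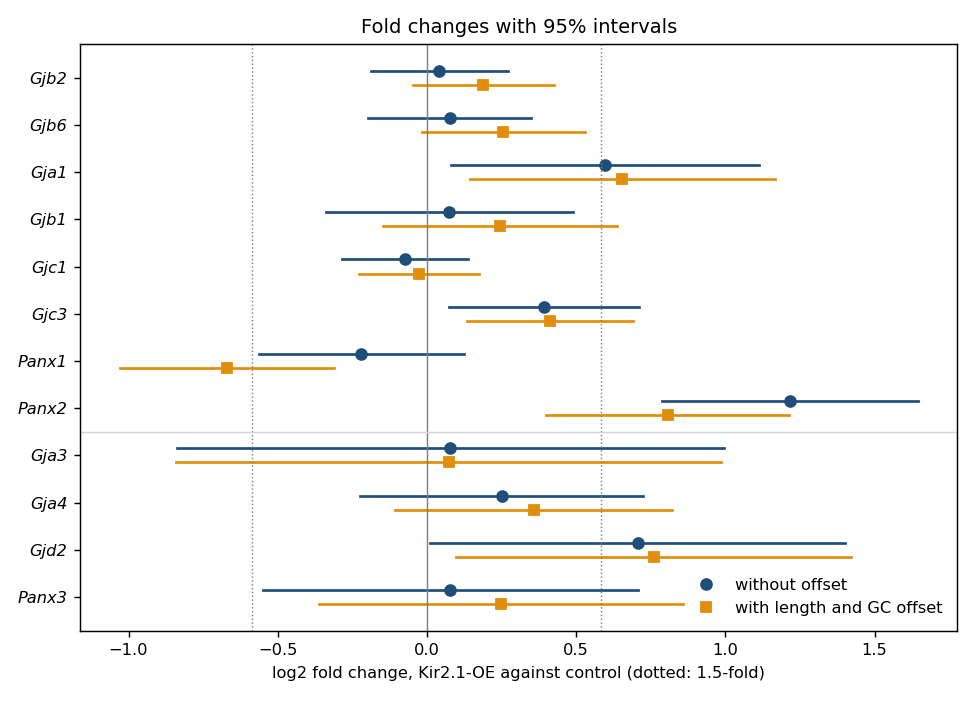
Log2 fold changes of Kir2.1-OE against control with 95% intervals (horizontal bars) for the 8 genes and, below the grey line, 4 other family genes tested, without (blue circles) and with (orange squares) an offset for transcript length and GC content. Dotted lines mark 1.5-fold. The estimates of Panx2, Gja1 and Gjd2 are above the upper line in both fits, and that of Panx1 passes the lower line with the offset alone. The whole interval of Panx2 lies above the upper line only without the offset.

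Across all genes tested the fold change moved with transcript length. An offset that removes the trend of each library on length and GC content brought the genes called from 2365 higher and 778 lower to 986 and 522, which is 9.85% of the genes tested, with a median log2 fold change of -0.04. With this offset, 2 of the 8 genes were called higher and 1 lower. Panx2 stayed called at 0.81 (SE 0.182, edgeR adjusted p = 0.00929), down from 1.22, and Gja1 passed at 0.66 (edgeR adjusted p = 0.0496). Panx1 was called lower at -0.67 (SE 0.161, edgeR adjusted p = 0.0118). The longest annotated transcript of Panx1 has 5732 nt, the longest of the 8 genes, while the median of its transcripts is 1214.5 nt. With the offset taken from the median transcript, Panx1 was not called, at -0.22 (edgeR adjusted p = 0.248). Which transcript of Panx1 these cells express was not measured here.

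**Figure D4:**
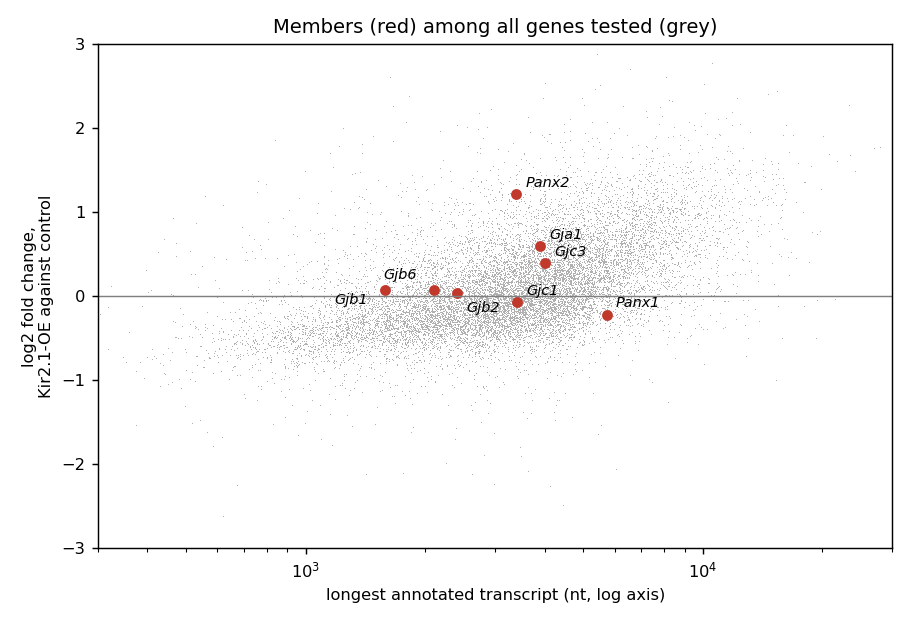
Log2 fold change of Kir2.1-OE against control (vertical axis) against the length of the longest annotated transcript (nt, log axis) for all genes tested with a length (grey dots), with the 8 connexin and pannexin genes in red. Genes beyond the axes are not shown. The cloud rises with length. Panx2 lies toward the upper edge of the cloud at its length, and Panx1, the longest of the 8, toward the lower edge.

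The family holds 15 further genes in the data, of which 5 passed the filter. Of these, 0 were called in either direction, beside 20.5% of all genes tested. At an unadjusted p under 0.05 by edgeR's quasi-likelihood test there was 1 (Gjd2), beside 8777 of the 15303 genes tested. Gjd2 encodes connexin 36, the connexin of electrical synapses between neurons. Its normalized count was 404.4, 265.8 and 762.7 in Kir2.1-OE and 298, 294.4 and 285 in control. The controls were alike, while Kir2.1-OE spread on both sides of them in the order of the neuron markers. Its log2 fold change was 0.71 (SE 0.310, edgeR adjusted p = 0.0837).

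Panx3, the pannexin of osteoblasts and chondrocytes, had a normalized count of 1587, 1842 and 2213 in Kir2.1-OE and 920, 2275 and 2147 in control. Control replicate 1, the library lowest in the sum of the bone markers and in Gja1, was also lowest in Panx3, and the log2 fold change was 0.08 (edgeR adjusted p = 0.836). Gja4 (connexin 37, of endothelium) had a log2 fold change of 0.25 and Gja3 (connexin 46, of the lens) of 0.08, with groups that overlapped for both. The 10 genes that did not pass the filter had between 0 and 13 reads in a library.

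The genes around the channels are described by 3 lists. Of 12 genes of junction partners, that is scaffolds, cadherins and kinases known to bind or modify connexins, 3 rose and 0 fell, beside 15.5% of all genes tested called higher and 5.08% lower, with a median log2 fold change of 0.35 beside 0.01 over all genes. Prkca, a protein kinase C, rose by 0.88 and the tight junction scaffold Tjp1 (ZO-1) by 0.79. For both of these genes every Kir2.1-OE library lay above every control. The groups did not overlap for 61.6% of all genes tested. Tjp1 had a normalized count of 11460, 11430 and 9631 against 6464, 6522 and 5807.

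Of 16 tested genes of ATP and calcium signalling, 5 rose and 0 fell, beside the same 15.5% and 5.08%, with a median log2 fold change of 0.38. They included the 3 IP3 receptors, the Ca2+ release channels through which IP3 acts. Itpr3 had a normalized count of 2941, 2669 and 2982 in Kir2.1-OE and 881.9, 1192 and 880.5 in control, a log2 fold change of 1.54. Itpr2 rose by 1.26, and Itpr1, named after its value was seen, by 0.97. Ano1, the Ca2+-activated chloride channel of supporting cells, rose by 0.80. For P2rx3, an ATP-gated channel of sensory neurons, the log2 fold change was 0.96 (SE 0.351, edgeR adjusted p = 0.0454), but its counts of 397.2, 284.8 and 845.2 overlapped those of the controls, 256.8, 321.7 and 206.6.

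Of 12 genes of potassium cycling, 2 rose and 0 fell, a share near the 15.5% of all genes called higher, with a median log2 fold change of 0.35. Kcnj10, the K+ channel of supporting cells and glia, rose by 0.79 (15900, 14300 and 13140 against 7146, 8795 and 9083), with every Kir2.1-OE library above every control. Groups without overlap were found for 61.6% of all genes tested. With the offset for length and GC content, however, the calls fell to 0 of 12 junction partners, 2 of 16 ATP and calcium genes (P2rx3 at 1.16 and Itpr3 at 0.59) and 1 of 12 potassium genes (Kcnj16 at 0.66), beside the 9.85% of all genes. With the offset from the median transcript 9 of the genes in these lists were called higher. They were 2 of 12 junction partners, 6 of 16 ATP and calcium genes and 1 of 12 potassium genes. In that fit 1664 genes were called higher and 841 lower, of 15303 tested.

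**Figure D5:**
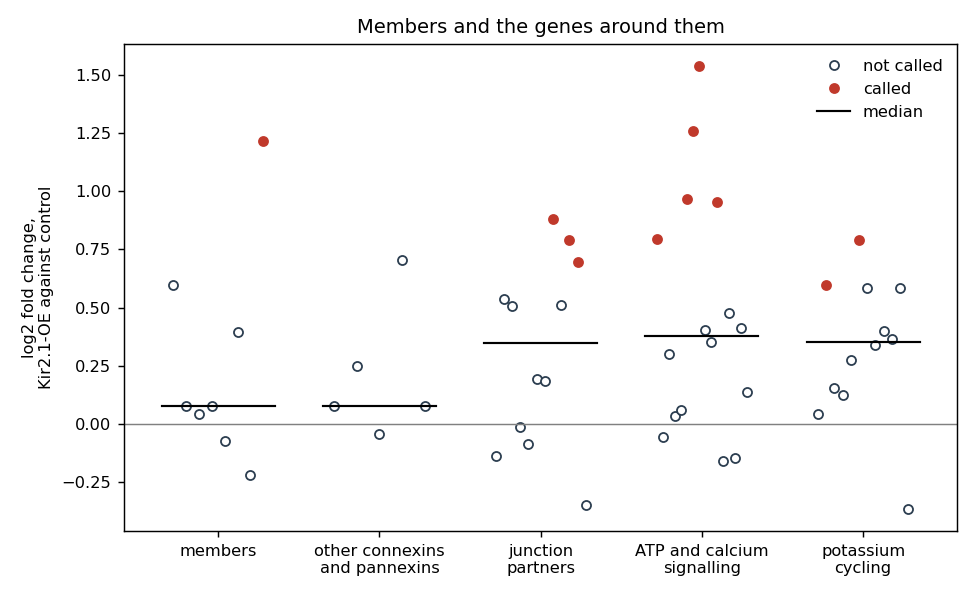
Log2 fold change of Kir2.1-OE against control for each tested gene of the 8 connexins and pannexins, the 5 other family genes and the 3 lists around them, without the length and GC offset. Filled red circles passed the test with a fold over 1.5, open circles did not, and black lines are medians, at 0.08, 0.08, 0.35, 0.38 and 0.35 from left to right.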

How the data were processed

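Poly(A) RNA of 3 Kir2.1-OE and 3 control pools of cochlear sensory epithelium was sequenced in pairs of reads. The authors mapped the reads to mm10 with the nf-core RNA pipeline and deposited Salmon expected counts per gene symbol, which need not be whole (6.95% of values were not) and are not scaled. Tool versions, gene annotation, strand setting and any removal of duplicates are not given in the sources used here. Reads shared by near-identical copies may have been divided among them.

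Rounded expected counts entered the model of edgeR 4.0.16 (R 4.3.3) after TMM scaling and filterByExpr, which kept 15303 of 24411 genes. Quasi-likelihood p-values were adjusted by Benjamini-Hochberg over those genes, and standard errors were taken as the log2 fold change divided by the root of F. A normalized count is a count divided by the library's TMM-scaled size relative to the mean size. The TMM factors lay between 0.984 and 1.01. At this depth a count of 3, the limit for a gene with no reads, was at most 8.47e-06% of a library, for counting error only. Between libraries of a group the chi-square per degree of freedom was 15.7 to 31.1, so none was a repeat of another.

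Symbols were matched to GENCODE vM21 (23376 by symbol, 655 by an older symbol, 380 unmatched), from which positions and transcript lengths were taken. The length and GC offset was a loess trend (span 0.4) on length and GC content of the log2 ratio between a library and the mean of the libraries. The script was tested on simulated data. The table of control replicate 1 carries the number 4 inside, and the label was followed. Promoter windows from RefSeq were matched for 6 of the 8 genes. The members and lists were chosen with earlier results of these data known. The genes named were the 8 members, Kcnj2, the other family genes that passed the filter, in each list around them the 2 highest and 2 lowest called genes, the 3 genes most like Gjb2, Gja1 and Gjc3 by Pearson correlation with normalized counts averaging 50 or more, and markers beside a member. Some genes that fall under this rule are not reported here. Alternatives were DESeq2 1.42.0 size factors and Wald test, library size alone, upper quartile scaling, no filter, at least 10 counts in every library, a replicate block, the offsets, limma-voom (limma 3.58.1), unrounded counts, no fold threshold, glmTreat at a log2 fold change of 0.6, and each library left out.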

Additional observations from a re-analysis of the deposited data

How the results depend on the processing

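Panx2 was called higher under all 20 alternatives, with a log2 fold change between 0.80 and 1.35, and no alternative turned the direction of Gja1, Gjc1, Gjc3, Panx1 or Panx2. The 8 genes counted 2 higher (Panx2 and Gja1, or Panx2 and Gjc3 with no fold threshold) without a filter, with at least 10 counts in every library, with the replicate block, with each of the offsets, with DESeq2's Wald test and with limma-voom, and 1 to 2 with a library left out. Panx1 was the 1 gene counted lower, with the longest-transcript offset alone or with the block. The log2 fold change of Gjb2 turned to -0.0477 under upper quartile scaling, to -0.14 with the median-transcript offset and ranged from -0.05 to 0.13 with a library left out (-0.0053 without Kir2.1-OE replicate 1, -0.0542 without control replicate 1). That of Gjb6 turned to -0.0133 under upper quartile scaling and ranged from -0.035 to 0.23 with a library left out, and that of Gjb1 to -0.0135 and, with the median-transcript offset, to -0.0193, with a range of -0.13 to 0.25 (-0.03 without control replicate 1). None of these passed the test, and the cause was not tested.

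Over all genes, 2365 higher and 778 lower became 1897 and 1378 under upper quartile scaling, which moved the share called higher from 75.2% to 57.9% and the median log2 fold change to -0.08, 986 and 522 with the offset, 798 and 444 with offset and block, 4184 and 3590 without a fold threshold, 832 and 57 with glmTreat, and 1878 to 2527 and 536 to 1074 with a library left out. The 10 genes called in the lists around the channels became 3 with the offset, 2 with offset and block, 25 without a fold threshold, 3 with glmTreat and 8 to 12 with a library left out. Of the other connexins and pannexins, 2 were called higher without Kir2.1-OE replicate 2, beside 2294 of the 15491 genes tested in that fit. The median-transcript offset was chosen after seeing the data.

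The deviations of same-numbered libraries from their group means correlated at -0.106, -0.232 and -0.213, so no pairing by number was seen. These values cannot exclude shared litters, because centring on means of 3 libraries constrains them. The table of control replicate 1 also carries another number. With the replicate block, 2220 genes were called higher and 718 lower, Gja1 passed at 0.66 (edgeR adjusted p = 0.0343) and Gjc3 had an edgeR adjusted p of 0.0669. With 3 pools a group, changes in the low-count genes of the family, such as Gja3 (SE 0.407), were not detectable below their intervals.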

Other observations

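Markers of the other cell types in the tissue moved as follows in Kir2.1-OE, by edgeR's quasi-likelihood test at a fold over 1.5, without the length and GC offset. Each count stands beside 15.5% of all genes tested called higher and 5.08% called lower. Of the vessel markers, 5 of 7 endothelial and pericyte genes rose and 0 fell, with summed normalized counts of 13860 to 14470 against 7298 to 9378 in control. Of the hair cell markers 4 of 8 rose and 1 fell, of the supporting cell markers 1 of 6 rose and 1 fell, and of the inner sulcus and interdental cell markers 2 of 5 rose and 1 fell. Glia counted 2 of 5 higher and 1 lower, and fibrocytes and mesenchyme 1 of 7 higher and 0 lower. The 1 of 6 supporting cell markers and the 1 of 7 fibrocyte and mesenchyme markers called higher were shares near the 15.5%. Melanocytes counted 2 of 4 tested lower and erythrocytes 3 of 5 lower, with 0 higher in both lists. Macrophages counted 0 of 6 in either direction. At an unadjusted p under 0.05 by edgeR there were 3 of the 6 macrophage markers, beside 8777 of the 15303 genes tested. With the length and GC offset, Slc26a5 alone of the hair cell markers stayed called, at a log2 fold change of 0.71. Myo7a (0.31), Myo15 (0.40), Otof (-0.10) and Atoh1 (-0.91) were then not called. In the other lists here Kdr, Hes5, Otog, Fabp7, Hba-a1 and Alas2 lost their call with this offset, and Tecta was called lower.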
